A study of Rattus norvegicus with 48 samples.

Results

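The comparison described here sets the posterior eye of young ovariectomised rats against that of young sham-operated rats, in 12 of the 48 libraries of the study. The animals were female Long-Evans rats aged 3 to 4 months, an outbred pigmented strain, and no engineered allele is named in the labels. In 6 animals, here called OVX, the ovaries were removed, and 6 animals, here called sham, had surgery that left the ovaries in place. The libraries were chosen by their labels alone, and each held the RNA of 1 animal. No hormone replacement, hormone level or interval between surgery and dissection is given in the sources used here, nor is the time of day of dissection. Animal numbers follow the groups, so any order of handling cannot be told apart from surgery. The posterior eye libraries of 12 older animals, aged 9 to 10 months with the same surgeries, and the retinas of the same young animals serve to test whether a difference was particular to the young posterior eye. The older posterior eye libraries also enter the main fit, where they share in the estimate of the spread between animals behind each p below.

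Ovariectomy is the usual rodent model of surgical menopause. The ovary is the main source of circulating oestradiol and progesterone, which act through nuclear receptors that bind DNA and switch genes on or off, and through membrane receptors. The posterior eye is a composite of tissue around the retina. It includes the retinal pigment epithelium, which recycles visual pigment and feeds the photoreceptors, the choroid with its vessels and melanocytes, and the sclera, a collagen-rich coat that sets the size and stiffness of the globe. Oestrogen is known to act on collagen turnover, lipid metabolism, vessels and immune cells in other tissues.

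Total counts ran from 11470945 to 22971367 per library in sham and from 13232426 to 21136118 in OVX. Of 32883 genes in the table, 16401 passed the low-count filter and were tested. The labelled tissue was checked against its markers. Rpe65, a pigment epithelium enzyme that regenerates the chromophore of visual pigment, was at 254 to 352 CPM (counts scaled to a fixed library total) in sham and 224 to 413 in OVX. Col1a1, a chain of the main scleral collagen, was at 1932 to 2995 and 1531 to 3104 CPM, and the melanosome protein gene Pmel at 609 to 1904 and 930 to 2460. The libraries also held RNA of neighbouring tissues. Krt12, a keratin of the corneal epithelium, was at 253 to 18594 CPM in sham and 7106 to 18164 in OVX, and Acta1, the actin of skeletal muscle, at 4235 to 7078 and 2486 to 7838. In these bulk samples, fewer cells of a type and less RNA per cell cannot be told apart.

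The levels of markers of neighbouring tissues varied widely between libraries. The first principal component of the 12 libraries held 49.5% of their variance, with rod genes such as Sag and Gnat1 at one end and Krt12 at the other. The level of the rod list (the mean log2 CPM of its members) ran from 4.07 to 8.93 in sham and from 2.17 to 9.18 in OVX, and the summed CPM of its 27 tested members from 1331 to 38860 and from 553 to 42700. None of these rod genes was at 0 counts in any young library. Sebaceous and meibomian glands, which secrete the oily film of skin and lid, were present in some libraries. Their list level was 5.89, 5.33 and 6.42 in sham animals 2, 4 and 6 and 4.17 in OVX animal 10, against 2.29 to 3.31 in the other 8 young libraries. The summed CPM of the 17 tested gland genes was 547 to 3854 in sham and 291 to 978 in OVX, and in any 1 library at most 4 members were at 0 counts. Awat2, a wax synthase that defines these glands, was at 792, 397 and 1365 CPM in those 3 sham libraries, at 88.1 in OVX animal 10, and at 0.11 to 9.70 elsewhere. Lens genes were highest in OVX animals 9 and 11, at list levels of 5.56 and 5.93, against 1.49 to 4.66 in the other 10 libraries. Gland markers thus differed between the groups by which libraries held them, and values without those 4 libraries are given beside part of the results. They are not given for every gene that moved. The part of these tissues in the results was not tested beyond those values.

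**Figure D1:**
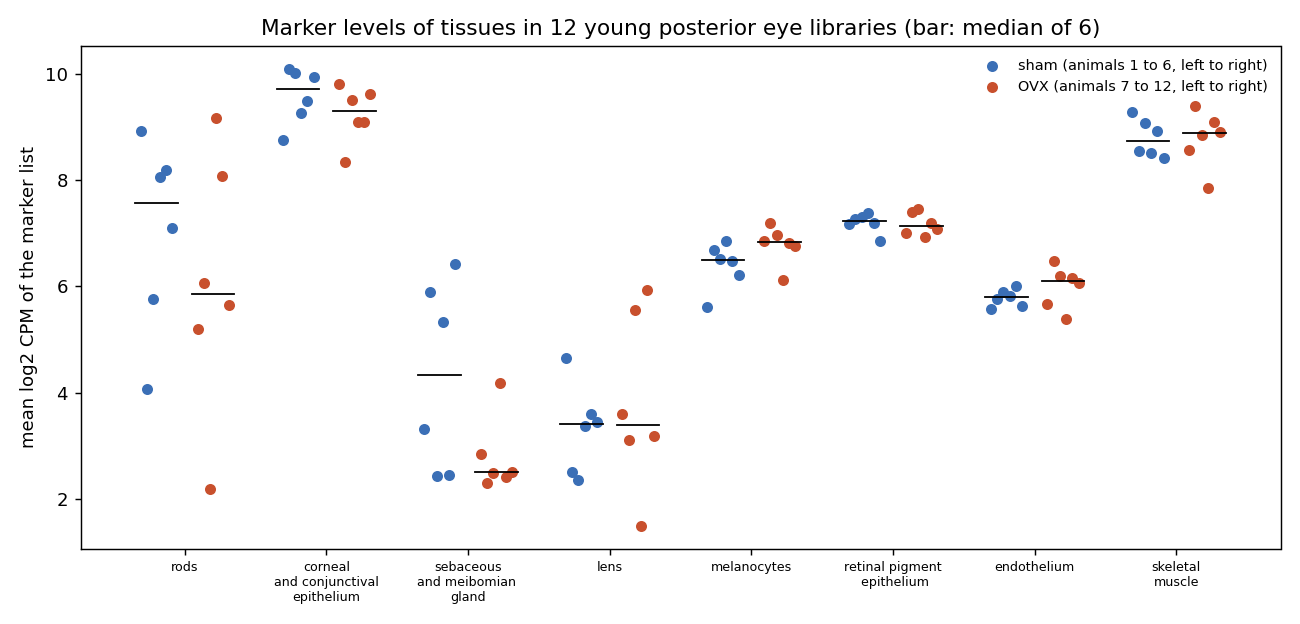
Mean log2 CPM of the marker list of 8 tissues in each young posterior eye library; sham libraries are blue, OVX libraries red, each point is 1 animal in order of its number and each bar is the median of 6. The gland list stands above 4 in sham animals 2, 4 and 6 and OVX animal 10, and the rod list spreads from 2.17 to 9.18.

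A single gene, Mthfd1l, passed the test of OVX against sham at an adjusted p under 0.05 (edgeR's quasi-likelihood test, Benjamini-Hochberg adjustment over all genes), which is 0.0061% of the genes tested. It rose. At an unadjusted p under 0.05 there were 1023 genes, 6.24% of those tested, of which 500 were higher and 523 lower in OVX. With no effect on any gene, about 820 would be expected there. The median log2 fold change of all genes was -0.01, and 254 genes lay more than 1 log2 unit from 0. Of all genes tested, 47.2% lay above 0. Counts for the gene lists below are to be read beside these shares, 47.2% above 0 and 6.24% at an unadjusted p under 0.05. All other genes below are therefore given by their values and by how far the groups overlapped. The smallest adjusted p after that of Mthfd1l was 0.273.

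**Figure D2:**
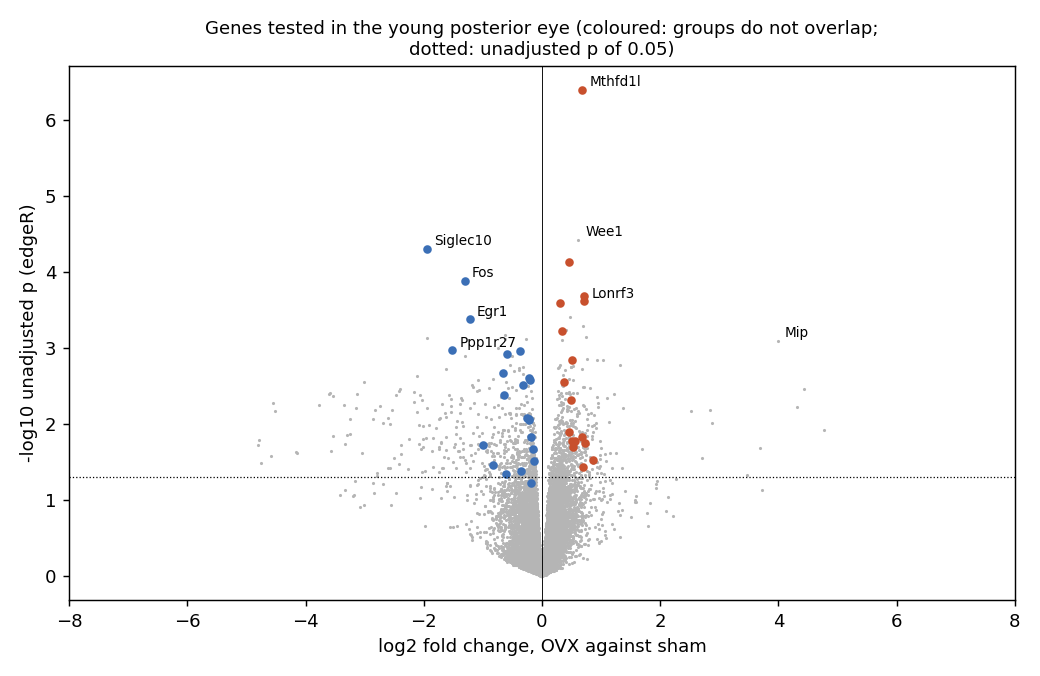
Log2 fold change of OVX against sham (horizontal) and -log10 of the unadjusted p (vertical) for the 16401 genes tested in the young posterior eye; coloured points are genes whose 6 OVX libraries all lie above (red) or below (blue) all 6 sham libraries. Mthfd1l stands alone at the top, and genes far to the sides, such as Mip, have a lower -log10 p than it.

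Mthfd1l encodes the mitochondrial 10-formyltetrahydrofolate synthetase, the enzyme that releases formate from mitochondria for purine and thymidylate synthesis in the cytosol. Its level was 11.3 CPM in the lowest sham library, 15.1 at the median and 17.7 in the highest, and 18.9, 23.8 and 29.3 CPM in OVX. All 6 OVX libraries lay above all 6 sham libraries. The log2 fold change was 0.69 ± 0.10 (SE, n = 6 per group; adjusted p = 0.00668). Leaving out each young library in turn gave an adjusted p of 0.00181 to 0.0342, so the call was kept in 12 of 12 such fits. It was lost without the 4 libraries with gland markers, where the log2 fold change was 0.80 (adjusted p = 0.105), when only the 12 young libraries were fitted (0.69, adjusted p = 0.383), with the gland level as a covariate (0.66, adjusted p = 0.1004) and with gland, rod and lens levels as covariates (0.60, adjusted p = 0.160).

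To show the regulatory sequence of the gene that was called, and of a pair of genes that differ from it in motif content, RefSeq promoter windows (build GRCr8, 250 bases before to 50 after the annotated start, in the direction of the gene) were searched on both strands. Btg2 is the immediate early gene with the smallest p after Fos and Egr1 and Siglec10 has the smallest p of the genes lower in OVX. Capitals mark the oestrogen half-site AGGTCA (or its reverse complement) in Siglec10 and the cAMP response element TGACGTCA in Btg2, and no searched motif was found in Mthfd1l. Btg2 also holds a half-site, left in lower case.
Mthfd1l, chr1:42849174-42849473, plus strand: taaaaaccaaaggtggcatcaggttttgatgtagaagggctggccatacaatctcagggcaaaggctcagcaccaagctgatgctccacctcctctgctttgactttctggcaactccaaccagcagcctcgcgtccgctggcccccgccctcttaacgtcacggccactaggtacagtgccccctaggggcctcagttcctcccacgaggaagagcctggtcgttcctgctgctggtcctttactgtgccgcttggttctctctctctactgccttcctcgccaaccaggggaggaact
Siglec10, chr1:102953668-102953967, plus strand: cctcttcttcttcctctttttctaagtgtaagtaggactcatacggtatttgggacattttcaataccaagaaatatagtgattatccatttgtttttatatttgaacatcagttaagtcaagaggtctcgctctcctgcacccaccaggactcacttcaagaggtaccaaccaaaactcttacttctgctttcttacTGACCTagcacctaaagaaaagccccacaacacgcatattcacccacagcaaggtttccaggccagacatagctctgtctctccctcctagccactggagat
Btg2, chr13:48087641-48087940, minus strand: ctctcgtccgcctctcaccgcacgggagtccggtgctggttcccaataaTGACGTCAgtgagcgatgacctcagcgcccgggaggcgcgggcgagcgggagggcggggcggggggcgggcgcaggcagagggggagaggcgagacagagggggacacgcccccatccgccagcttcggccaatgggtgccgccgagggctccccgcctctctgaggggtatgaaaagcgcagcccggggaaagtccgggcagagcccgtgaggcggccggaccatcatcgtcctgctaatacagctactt

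A total of 28 genes were named by the size of their p, 14 in each direction, and 25 of them had a promoter window. The half-site AGGTCA was found in 2 of the 25, Siglec10 and Alox12e, and in 16.2% of all 33469 windows. The full oestrogen response element GGTCANNNTGACC was found in 0 of the 25 and in 0.0269% of all windows. The E-box CACGTG was found in 3 (Lonrf3, Prr7 and Gtf2ird2; 6.42% of all), the sterol response element TCACNCCAC in 1 (Adamts1; 1.12%), the serum response element core in 1 (Egr1; 1.64%), and the cAMP response element in 0 (1.83%). Among the 29 tested immediate early genes, 21 had a window, of which 5 held the cAMP response element (Btg2, Dusp1, Ier2, Maff and Jund) and 5 the serum response element core (Egr1, Egr2, Zfp36, Dusp5 and Klf6). Of the 24 cholesterol genes, 17 had a window and 0 held the sterol response element. The half-site can lie within the full element, and the other motifs were counted separately. A match of letters is a description of the window and not a bound site.

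The other folate one-carbon and serine genes lay close to 0. All 31 listed genes were tested, of which 22 lay above 0 and the median was 0.03 (log2 fold change), and none but Mthfd1l was called. At an unadjusted p under 0.05 there were 3 of them, 2 higher and 1 lower. The lower one was Psph, the last enzyme of serine synthesis, at 13.8, 20.7 and 35.7 CPM in sham and 11.8, 16.5 and 18.2 in OVX. Its 3 highest sham libraries were animals 2, 4 and 6, those with gland markers, and its log2 fold change of -0.49 ± 0.24 was 0.06 without the 4 gland libraries.

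Among the other 13 genes named for the smallest p on the higher side, several act in signalling, the cell cycle and cell junctions. Wee1, the kinase that holds back entry into mitosis, was at 23.4, 36.5 and 42.9 CPM in sham and 40.4, 58.8 and 63.1 in OVX, with 1 overlap between the groups, OVX animal 10. Its log2 fold change was 0.62 ± 0.12 (adjusted p = 0.273). Without OVX animal 10 it was 0.70 and was called (adjusted p = 0.0442). Gnaq, the alpha subunit that couples many receptors to phospholipase C, was at 22.8, 25.2 and 26.7 CPM in sham and 27.8, 30.3 and 34.1 in OVX. The groups did not overlap, but the difference was small, 0.30 ± 0.07 on the log2 scale (adjusted p = 0.521).

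Jam2, a junctional adhesion molecule of endothelium, was at 67.8, 77.0 and 86.5 CPM in sham and 88.6, 98.7 and 110 in OVX, again with no overlap (0.34 ± 0.09). Adamts1, a secreted protease that cuts large proteoglycans, was at 79.2, 113 and 128 CPM in sham and 124, 147 and 181 in OVX (0.48 ± 0.12). Its lowest OVX library lay within the sham range. Lonrf3, a RING finger protein, was low in both groups, at 0.97 to 2.08 CPM in sham and 2.21 to 3.47 in OVX, and did not overlap (0.72 ± 0.17). Stx2 (0.34 ± 0.09), a syntaxin of membrane fusion, Rev1 (0.31 ± 0.09), a translesion DNA polymerase, and Enpp4 (0.41 ± 0.10) were at 24.5 to 52 CPM over both groups. Prr7 (0.70 ± 0.17), Gtf2ird2 (0.50 ± 0.14) and Chodl (0.76 ± 0.21) were at 1.40 to 61.7 CPM. Mip, the main water channel of lens fibres, had the highest fold of these genes, 3.99 ± 1.03. It was at 59.6, 19.7 and 6.31 CPM in OVX animals 9, 11 and 7 and at 0.24 to 1.94 in the other 9 libraries, and with gland, rod and lens levels as covariates its log2 fold change was 0.99 (adjusted p = 0.809). Mip is itself a member of the lens list behind that covariate.

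On the lower side, Siglec10, a sialic acid receptor of B cells and myeloid cells that dampens activation, had the smallest p. It was at 3.61, 6.11 and 8.90 CPM in sham and 0.83, 1.51 and 2.42 in OVX, and the groups did not overlap. The log2 fold change was -1.94 ± 0.39 (adjusted p = 0.273) and -2.02 without the gland libraries. Fos, the transcription factor made within minutes of a stimulus, was at 22.6, 42.0 and 55.1 CPM in sham and 12.7, 17.1 and 21.6 in OVX. Its groups stood apart by a narrow margin, with a log2 fold change of -1.31 ± 0.28 (adjusted p = 0.432). Egr1, a zinc finger factor of the same early response, was at 62.7, 104 and 145 CPM in sham and 35.5, 45.4 and 58.3 in OVX (-1.22 ± 0.30).

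Pim3, a survival kinase, was at 48.8, 54.2 and 65.2 CPM in sham and 37.2, 44.7 and 46.5 in OVX, with no overlap (-0.37 ± 0.10, and -0.21 without the gland libraries). Sapcd2, a regulator of spindle orientation, was at 3.00 to 4.26 CPM in sham and 1.67 to 2.64 in OVX (-0.59 ± 0.16), and Ppp1r27 at 1.74 to 3.67 and 0.34 to 1.18 (-1.52 ± 0.40). Neither overlapped between the groups. Nme1, a nucleoside diphosphate kinase, was at 84.9, 96.3 and 113 CPM in sham and 59.3, 79.6 and 91.2 in OVX (-0.32 ± 0.09), and Arhgap10, a GTPase-activating protein, had a log2 fold change of -0.26 ± 0.07. Alox12e, a lipoxygenase, and Pxmp4, a peroxisomal membrane protein, were high in sham libraries with gland markers. In OVX animal 10, which also held such markers, they were not, at 1.64 and 10.0 CPM. Alox12e was at 13.1 and 12.2 CPM in sham animals 2 and 6 and at 1.08 to 4.18 in the other 10 libraries, and its log2 fold change of -1.94 was -0.39 without the gland libraries. Pxmp4 was at 28.5, 19.3 and 36.3 CPM in sham animals 2, 4 and 6 and at 32.3 in sham animal 1, against 7.78 to 10.0 in the other 8 libraries, and its log2 fold change of -1.30 was -0.86 without the gland libraries.

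**Figure D3:**
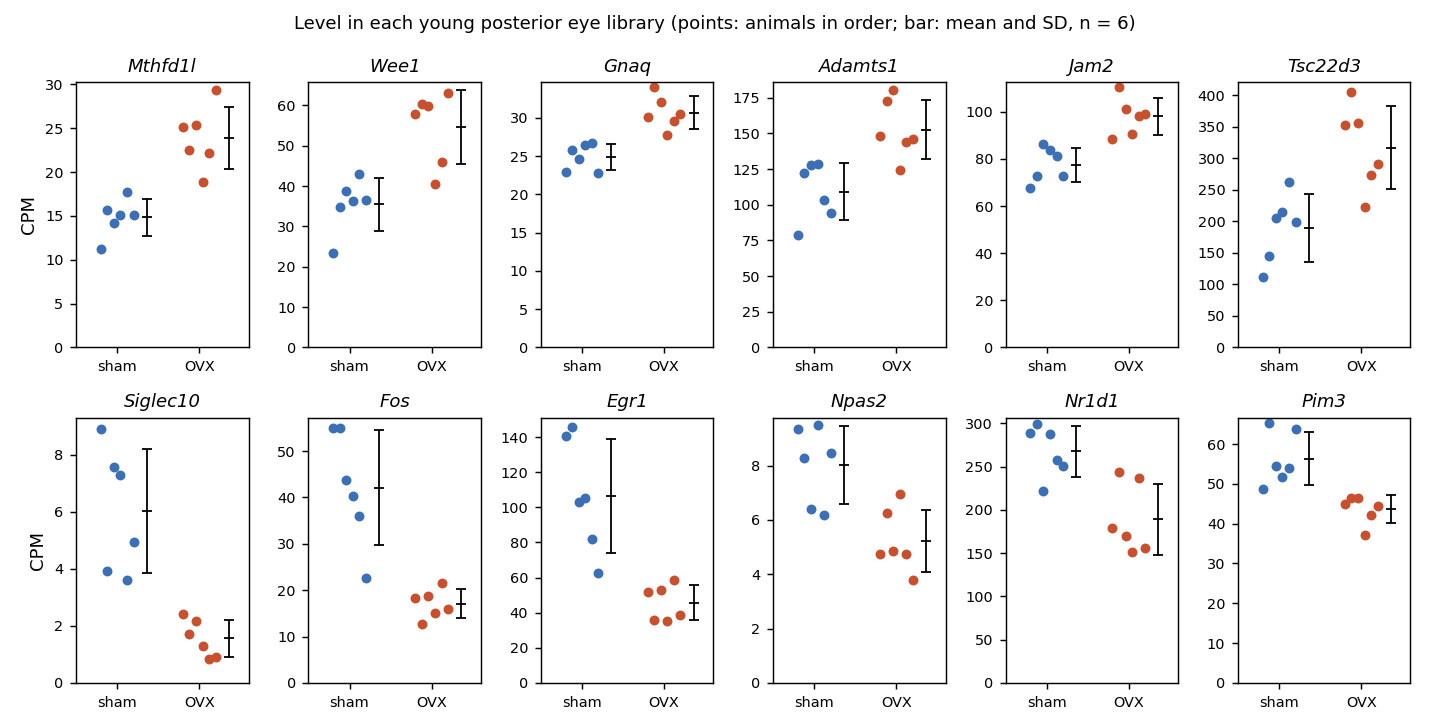
CPM (vertical, from 0) of 12 of the genes with the smallest p in each sham (blue) and OVX (red) library; points are animals in order of number, and the black bar beside them is the mean with its SD (n = 6). Groups do not overlap for Mthfd1l, Gnaq, Jam2, Siglec10, Fos, Egr1 and Pim3.

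All 28 genes named by p kept their sign without the 4 gland libraries and with gland, rod and lens levels as covariates. In proportion, the log2 fold change shrank most without those libraries for Alox12e (-1.94 to -0.39) and Mvd (-0.74 to -0.34). In 25 of the 28, the 6 OVX libraries were either all above or all below the median of sham. The 28 genes were chosen by their p in these same libraries, so these counts describe them and are no independent check.

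Complete separation of the groups is described here without a p. Groups formed without regard to surgery would also separate in some genes, and how many was not tested. Separation is therefore a description of these libraries and not a result about surgery. In 17 genes (0.104% of those tested) all 6 OVX libraries were above all 6 sham libraries, and in 22 (0.134%) all were below. Of these 39 genes, 35 had non-provisional symbols. The largest differences among the higher ones with at least 2 CPM, beside Lonrf3 and Mthfd1l, were in Slc4a11, Slc6a15, Akain1 and Ntn3. Slc4a11, a transporter of the corneal endothelium, was at 11.7, 55.2 and 66.4 CPM in sham and 66.6, 85.3 and 93.0 in OVX (0.72 ± 0.28). Slc6a15, a transporter of neutral amino acids, was at 9.87, 37.5 and 38.9 CPM in sham and 40.3, 51.5 and 61.8 in OVX. In both genes the sham value far below the rest was animal 1, which also had the highest rod level and the lowest total count of the sham libraries. Akain1 was at 2.64 to 6.05 and 6.12 to 7.87 CPM, and Ntn3, a netrin, at 2.04 to 3.22 and 3.79 to 4.77. Among the lower ones, beside Siglec10, Ppp1r27, Fos and Egr1, were Slc16a14 and Angptl4. Slc16a14, a monocarboxylate transporter family member, was at 5.02 to 10.2 CPM in sham and 2.04 to 4.89 in OVX (-0.998 ± 0.395). Angptl4, a secreted inhibitor of lipoprotein lipase, was at 10.1, 13.6 and 17.6 CPM in sham and 6.89, 8.72 and 9.52 in OVX (-0.65 ± 0.19).

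Receptors of ovarian steroids were present at low levels and none was called. Esr1, encoding oestrogen receptor alpha, was at 4.14, 4.75 and 5.59 CPM in sham and 4.34, 5.67 and 6.36 in OVX (0.23 ± 0.16). Esr2, encoding oestrogen receptor beta, was at 0.45 to 1.65 and 0.58 to 1.54 CPM, with a log2 fold change of 0.00 ± 0.50 whose sign turned under 8 of 26 alternative fits. Gper1, the membrane oestrogen receptor, was at 3.08 to 4.05 CPM in sham and spread from 1.5 to 6.73 in OVX (0.18 ± 0.27). Pgr, the progesterone receptor and a classic oestrogen target, was at 0.48 to 1.41 and 0.53 to 2.04 CPM (0.07 ± 0.35). The error of Pgr and Esr2 leaves room for differences in either direction. Of 18 tested receptors and cofactors, 11 lay above 0 (median 0.01). At an unadjusted p under 0.05 were Nr3c2, the mineralocorticoid receptor, at 15.5 to 19.5 and 18.7 to 21.6 CPM (0.23 ± 0.09), and Pgrmc1, a membrane-associated haem protein that binds progestins, at 131 to 212 and 127 to 153 (-0.24 ± 0.10). The 3 highest sham values of Pgrmc1 were in the gland libraries, and without these its log2 fold change was -0.002.

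Genes known to respond to oestrogen in other tissues lay on both sides of 0, 13 of 22 above it, with a median of 0.02 and none called. Pdzk1, a scaffold protein, was at 3.07, 4.90 and 6.80 CPM in sham and 2.30, 2.63 and 6.08 in OVX (-0.62 ± 0.24, adjusted p = 0.725). Myc was at 19.5 to 33.6 and 11.7 to 24.1 CPM (-0.38 ± 0.20, and -0.18 without the gland libraries). Of 19 tested genes of steroid synthesis and conversion, 14 lay below 0 (median -0.15), against 8 of 19 without the gland libraries, where the median was 0.06. Cyp7b1, a hydroxylase of oxysterols and neurosteroids, was at 4.85 to 10.2 CPM in sham and 8.01 to 13.7 in OVX (0.41 ± 0.16). Hsd17b12, which serves fatty acid elongation and oestrone reduction, was at 61.7 to 136 and 52 to 86 (-0.47 ± 0.18). Its 3 highest sham values were in the gland libraries, and without these the log2 fold change was -0.11 for Hsd17b12 and 0.72 for Cyp7b1.

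Targets of the glucocorticoid receptor, the receptor of adrenal stress steroids, were split. Of 20 tested genes, 13 lay above 0 with a median of 0.09 and none was called. At an unadjusted p under 0.05 were 6 on the higher side and 2 on the lower. Tsc22d3, encoding the glucocorticoid-induced leucine zipper, was at 111, 202 and 263 CPM in sham and 223, 322 and 405 in OVX (0.74 ± 0.19, adjusted p = 0.661). Fkbp5, a co-chaperone that holds back the receptor, was at 20.3, 28.4 and 36.4 CPM in sham and 34.7, 39.1 and 44.5 in OVX (0.41 ± 0.13). Both groups overlapped in both genes. Angptl4, described above, is on the same list and was lower. Corticosterone was not measured in the files used here.

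Clock genes, whose RNAs cycle through the day, lay on both sides of 0. Npas2, which pairs with Bmal1 to drive the clock, was at 6.18, 8.38 and 9.48 CPM in sham and 3.79, 4.82 and 6.95 in OVX (-0.62 ± 0.16, adjusted p = 0.661). Nr1d1, the repressor Rev-erb alpha, was at 222, 273 and 299 CPM in sham and 151, 174 and 244 in OVX (-0.50 ± 0.14). Per2, a repressor of the other arm, was at 47.8, 59 and 68.5 CPM in sham and 62.3, 80.9 and 107 in OVX (0.48 ± 0.14). Of 19 tested clock genes, 5 were higher and 2 lower at an unadjusted p under 0.05, none was called, and the median was 0.04. A difference in the time of dissection between the groups was not tested.

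Immediate early genes, which cells switch on within minutes of growth factors, activity or tissue handling, were below 0 for 27 of 29 members, and their median log2 fold change was -0.29, where the median of all genes was -0.01. None was called, and 10 were lower at an unadjusted p under 0.05. Beside Fos and Egr1, the smallest p belonged to Btg2, an antiproliferative factor, at 39.9, 49.4 and 57.2 CPM in sham and 29.6, 37.6 and 43.1 in OVX (-0.44 ± 0.15). The level of the list was 4.90, 4.45 and 4.59 log2 CPM in the sham libraries with gland markers and 4.15, 4.39 and 4.41 in the other 3 sham libraries, against 3.82 to 4.23 in OVX. Without the 4 gland libraries 17 of 29 lay below 0 and the median was -0.11, whereas Fos (-1.36) and Egr1 (-1.18) were as low as before. With gland, rod and lens levels as covariates 29 of 29 lay below 0 (median -0.38).

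All 24 tested genes of cholesterol synthesis and uptake lay below 0, with a median of -0.46. None was called, and 19 were lower at an unadjusted p under 0.05, where 523 of all 16401 genes were lower. Idi1, which isomerises isopentenyl diphosphate, was at 21.2, 30.0 and 46.9 CPM in sham and 16.1, 20.9 and 25.5 in OVX (-0.63 ± 0.16). Mvd, the decarboxylase just before it in the pathway, was at 25.9, 37.3 and 59.8 CPM in sham and 20.2, 24.3 and 28.9 in OVX (-0.74 ± 0.20), and Fdps, which makes farnesyl diphosphate, at 214, 269 and 411 and 193, 218 and 252 (-0.47 ± 0.13). Without the gland libraries the log2 fold change was -0.41 for Idi1, -0.34 for Mvd and -0.18 for Fdps. The highest values of Mvd were in sham animals 2 and 6. The level of the list was 6.86 and 6.98 log2 CPM in these 2 libraries, 5.78 to 6.27 in the other 4 sham libraries and 5.73 to 6.13 in OVX, so sham animals 1 and 5 lay within the OVX range. Without the 4 gland libraries 20 of 24 genes still lay below 0 with a median of -0.18, and with the gland level as a covariate 24 of 24 did, with a median of -0.24.

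**Figure D4:**
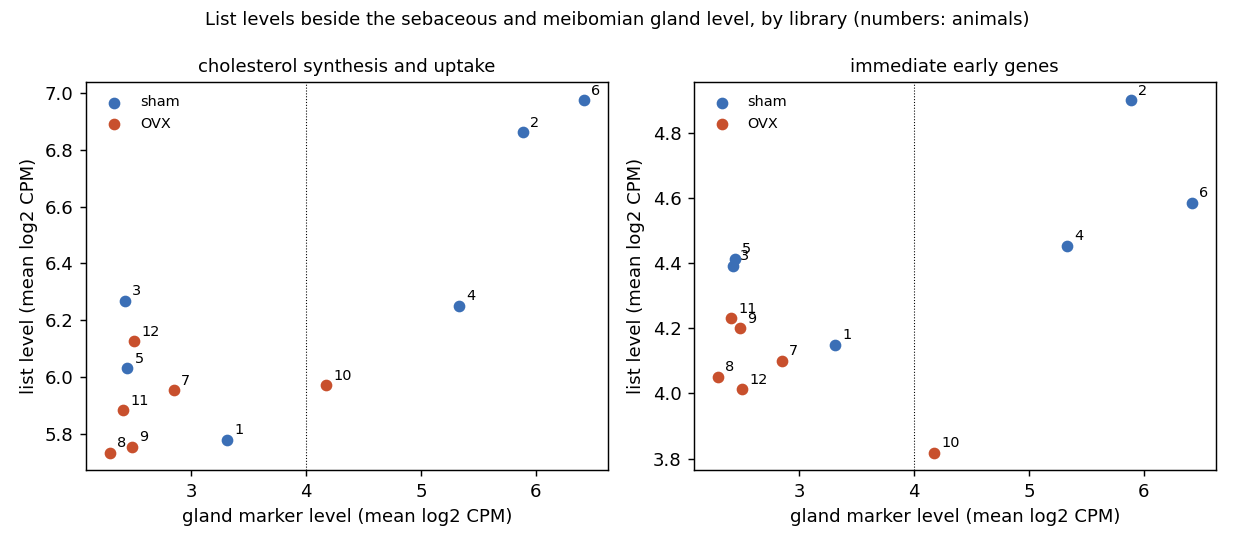
Level of the cholesterol list (left) and of the immediate early genes (right) in each young library, as mean log2 CPM, against the level of the sebaceous and meibomian gland list; numbers are animals and the dotted line is at 4. The cholesterol level is highest in sham animals 2 and 6, which also have the highest gland levels, and the immediate early level is lowest in OVX animal 10.

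Lipid genes of the glands themselves made the gland libraries visible. Of 17 tested gland genes 16 lay below 0 with a median of -1.46, and -0.28 without the gland libraries. Those libraries were set apart by the level of this same list, so the smaller median follows from that choice. Mc5r, the melanocortin receptor of sebaceous glands, was at 7.80, 2.43 and 8.72 CPM in sham animals 2, 4 and 6 and at 0.11 to 0.67 in the other 9 libraries. Scd, a stearoyl desaturase, was at 2719, 1636 and 5016 CPM in those 3 and at 69 to 335 elsewhere. Its log2 fold change of -3.54 ± 1.11 was 0.14 without the gland libraries, and the median of the 15 fatty acid synthesis genes went from -0.17 to 0.11. Of 15 tested genes of corneal and conjunctival epithelium, 12 lay below 0 with a median of -0.32, and none was called. Without the gland libraries 9 of 15 lay below 0 and the median was -0.06. With gland, rod and lens levels as covariates it was -0.34. Krt14 was at 473, 665 and 953 CPM in sham and 200, 399 and 781 in OVX (-0.71 ± 0.27, and -0.43 without the gland libraries), and Krt17 at 73.3 to 247 and 2.29 to 113 (-1.62 ± 0.66).

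Extracellular matrix genes, 173 tested over 9 lists, lay above 0 in 123 cases with a median of 0.16. None was called and none separated the groups, and 21 were higher and 4 lower at an unadjusted p under 0.05. Fibrillar collagens were centred near 0, 6 of 10 above it with a median of 0.05, and -0.09 with gland, rod and lens levels as covariates. Col1a1 had medians of 2393 CPM in sham and 2415 in OVX, and Col3a1, the collagen of distensible tissue, of 791 and 565 (-0.37 ± 0.31). Dcn, encoding decorin, a proteoglycan that spaces collagen fibrils, was at 2239, 3161 and 3355 CPM in sham and 2229, 3820 and 4559 in OVX (0.25 ± 0.16). Fn1, encoding fibronectin (0.10 ± 0.13), and Timp1, an inhibitor of matrix metalloproteinases (0.21 ± 0.17), overlapped as widely. With the 3 covariates the log2 fold change was 0.09 for Dcn, 0.08 for Timp1 and -0.01 for Fn1. Without the gland libraries it was 0.41 for Dcn, 0.38 for Timp1 and 0.27 for Fn1.

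Basement membrane genes made up 7 of those 21, with 20 of 24 above 0 and a median of 0.16. Npnt, encoding the integrin ligand nephronectin, was at 13.8, 29.5 and 35.2 CPM in sham and 31.3, 39.7 and 49.2 in OVX (0.52 ± 0.19, adjusted p = 0.676). Col4a4 was at 56.8 to 90.2 and 83.5 to 116 CPM (0.46 ± 0.17), Col4a5 at 18.3 to 46.1 and 37 to 52.3 (0.48 ± 0.18) and Col4a1 at 93.8 to 124 and 101 to 174 (0.38 ± 0.14). Col4a4 and Col4a5 are chains of the collagen IV network of mature basement membranes, and Col4a1 of the network found in nearly all vessels. Small leucine-rich proteoglycans lay above 0 in 9 of 10 cases (median 0.29). The smallest p was that of Ogn, osteoglycin, at 0.26 to 0.91 and 0.77 to 1.42 CPM (0.93 ± 0.26), followed by Chad (0.56 ± 0.29) and Bgn (0.37 ± 0.21). With gland, rod and lens levels as covariates the log2 fold change was 0.20 for Col4a1 and 0.17 for Bgn, and the median was 0.08 for basement membrane genes and 0.14 for the small proteoglycans. Without the gland libraries these values were 0.41, 0.53, 0.25 and 0.47, in that order.

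Members of the other matrix lists lay on both sides. Hyal2, a hyaluronidase, was at 69.9 to 130 CPM in sham and 85.1 to 160 in OVX (0.40 ± 0.14), and Cspg4, a proteoglycan of pericytes and glial precursors, at 19.0 to 22.0 and 15.4 to 38.4 (0.45 ± 0.17). Has2, a hyaluronan synthase, was at 2.63, 4.13 and 4.58 CPM in sham and 1.16, 1.57 and 3.79 in OVX (-0.81 ± 0.34). P4ha2 (0.20 ± 0.08) and P4ha1 (0.20 ± 0.08), the prolyl hydroxylases that stabilise collagen, were slightly above 0, while the crosslinking enzyme Loxl4 was at 3.53 to 10.1 and 2.41 to 6.57 CPM (-0.68 ± 0.26). Adamts15, a proteoglycan protease, was at 4.39 to 13.9 and 2.72 to 5.06 (-0.81 ± 0.27). The WNT list is not among the 9 matrix lists. Of its 31 tested genes 21 lay above 0, with a median of 0.13. With gland, rod and lens levels as covariates the median was 0.01, and without the gland libraries 0.22. At an unadjusted p under 0.05, 2 were higher and 1 lower. The agonists Rspo3 (1.59 to 3.99 and 3.77 to 5.25 CPM, 0.55 ± 0.19) and Rspo2 (0.71 to 3.60 and 2.95 to 4.21, 0.74 ± 0.30) had the smallest p. Sham animal 1 held the lowest value of both.

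Tested genes of melanocytes and of endothelium, which need not come from the choroid alone, lay above 0, with none called. The 12 melanocyte genes were all above it, with a median of 0.40, which was 0.72 without the gland libraries and 0.29 with gland, rod and lens levels as covariates. Oca2, a melanosome chloride channel, was at 11.1, 27.4 and 38.1 CPM in sham and 19.4, 39.7 and 49.2 in OVX (0.60 ± 0.24), and Mlana at 33.7 to 103 and 68.1 to 144 (0.51 ± 0.23). The 16 endothelial genes were too, with a median of 0.24. With the 3 covariates 4 of the 16 lay below 0 and the median was 0.07, with 0.15 for Ptprb and 0.14 for Vwf. Without the gland libraries 1 of the 16 lay below 0 and the median was 0.31, with 0.43 for Ptprb and 0.51 for Vwf. Ptprb, the vascular endothelial phosphatase, was at 57.6 to 102 and 60.5 to 138 CPM (0.36 ± 0.15) and Vwf, von Willebrand factor, at 111 to 157 and 90.9 to 275 (0.38 ± 0.19). Myelin and Schwann cell genes lay on both sides, 16 of 24 above 0 and 8 below (median 0.35, 0.19 with the 3 covariates and 0.53 without the gland libraries). Cdh19 (0.49 ± 0.20) and S100b (0.59 ± 0.25) were among the former. Egr2, the factor that drives myelination and also an immediate early gene, was the lowest member (-1.38 ± 0.47), at 14.4, 4.96 and 12.4 CPM in sham animals 2, 4 and 6 and at 1.94 to 2.99 in the other 9 libraries. OVX animal 10, the OVX library with the highest rod and gland levels, was the lowest OVX library for the melanocyte, endothelial and skeletal muscle lists, at 6.13, 5.39 and 7.85 log2 CPM.

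Pigment epithelium genes were near 0, 6 of 19 above it with a median of -0.02, and Rpe65 had a log2 fold change of -0.06 ± 0.28. All 21 lens genes lay above 0 with a median of 0.75. With gland, rod and lens levels as covariates it was -0.01. That follows from the fit, since the lens level is the mean of these same genes. Lim2, a membrane protein of lens fibres, was at 48.7 and 20.7 CPM in OVX animals 9 and 11, at 6.63 in OVX animal 7 and at 0.29 to 3.88 elsewhere, and the lens connexin Gja3 at 10.5, 11.9 and 6.58 in those 3 and 2.32 to 6.96 elsewhere. The rod list had 26 of 27 genes below 0 and a median of -0.30, which was -1.78 without the gland libraries, which include rod-rich OVX animal 10.

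**Figure D5:**
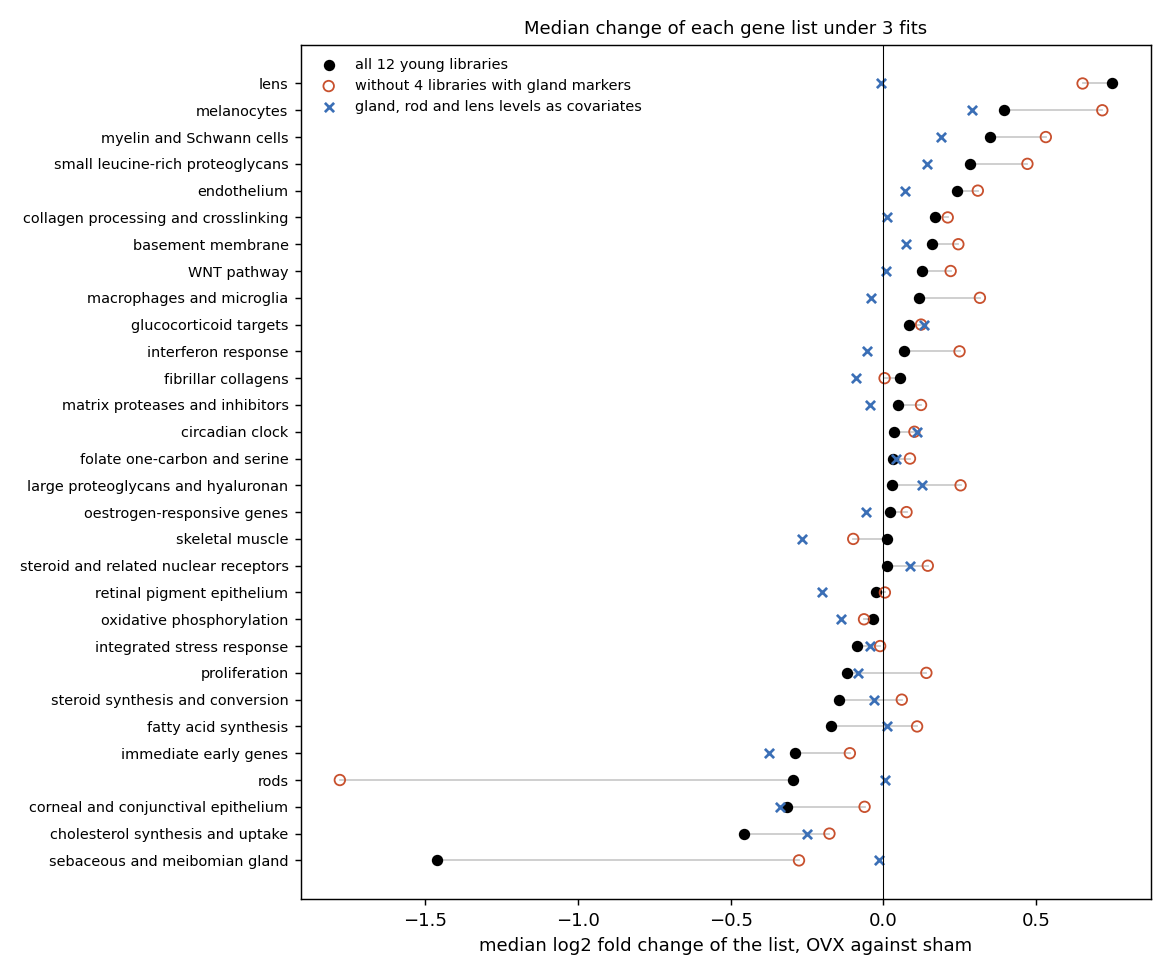
Median log2 fold change of OVX against sham (horizontal) of 30 gene lists in 3 fits, with all 12 young libraries (black), without the 4 libraries with gland markers (open red) and with gland, rod and lens levels as covariates (blue crosses). The cholesterol median goes from -0.46 to -0.18 without those libraries, the rod median from -0.30 to -1.78, and the lens median to -0.01 with the covariates. The gland, rod and lens lists supply the covariates, so their own crosses near 0 follow from the fit. The gland list also set which libraries were left out, so the move of its own open circle follows from that choice.

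Of 24 tested macrophage and microglia genes 16 lay above 0 and none was called. Their median was 0.12, -0.04 with the 3 covariates and 0.32 without the gland libraries. P2ry12, the purine receptor of resting microglia, was at 1.48, 1.97 and 3.44 CPM in sham and 2.31, 3.43 and 5.22 in OVX (0.70 ± 0.23, adjusted p = 0.661), and Trem2, a lipid-sensing receptor of phagocytes, at 9.27, 11.6 and 15.6 and 7.29, 17.6 and 20.9 (0.49 ± 0.21). Siglec10 was at the other end of the same list. Interferon response genes lay above 0 in 20 of 32 cases, with a median of 0.07. The median was -0.05 with the 3 covariates and 0.25 without the gland libraries, where 28 of 32 lay above 0. Ifi44l was at 0.53 to 3.81 and 1.74 to 7.28 CPM (1.07 ± 0.44). Chac1, a glutathione-degrading enzyme of the integrated stress response, was at 13.3 to 22.2 CPM in sham and 7.39 to 12.5 in OVX, with no overlap (-0.64 ± 0.20), while 13 of 20 genes of that list lay below 0 (median -0.09). Of 34 oxidative phosphorylation genes 30 lay slightly below 0 (median -0.03), and proliferation genes in 15 of 26 (median -0.12, and 0.14 without the gland libraries).

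Whether the response to OVX differed with age was tested with the same fit of 24 posterior eye libraries. None of 16401 genes (0%) differed at an adjusted p under 0.05 (edgeR), and DESeq2 and limma-voom also called 0. At an unadjusted p under 0.05 there were 487 (edgeR), where about 820 would be expected with no effect. Mthfd1l was at 21.3 ± 0.65 CPM in aged sham and 23.4 ± 1.93 in aged OVX (SD, n = 6 each), a log2 fold change of 0.14 ± 0.10. The young effect exceeded the aged one by 0.55 ± 0.14 (adjusted p = 0.9998). Young sham libraries, at 11.3 to 17.7 CPM, were the low group of the 4 for this gene. Siglec10 was at 3.79 ± 1.85 and 1.72 ± 0.82 CPM in aged sham and aged OVX (log2 fold change -1.14 ± 0.38), in the same direction as in the young. Gnaq had a log2 fold change of 0.25 ± 0.07 in the aged. Fos (0.17 ± 0.28), Egr1 (-0.13 ± 0.29) and Wee1 (0.08 ± 0.12) had values nearer 0 there, with no called difference between the ages.

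Whether the response differed between the posterior eye and the retina of the same young animals was tested in 24 libraries paired by animal. None of 16696 genes (0%) differed at an adjusted p under 0.05 and 971 did at an unadjusted p under 0.05 (edgeR). Without the animal as a block, and in limma-voom with the animal as a random effect, 1 gene was called, Gnaq (adjusted p = 0.0432 and 0.0400). The smallest p was that of Gnaq, whose log2 fold change was 0.52 ± 0.07 higher in the posterior eye than in the retina (adjusted p = 0.0652), where it was -0.18 ± 0.06. Adamts1 followed, with a difference of 0.83 ± 0.12 (adjusted p = 0.0812) and a retinal log2 fold change of -0.31 ± 0.09. For Mthfd1l the retinal log2 fold change was -0.01 ± 0.09, and the difference between the tissues of 0.71 ± 0.17 was not called (adjusted p = 0.623). Egr1 (-1.32 ± 0.35) and Fos (-0.71 ± 0.23) lay below 0 in the retina too, and Siglec10 was below the low-count filter there.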

How the data were processed

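RNA was amplified with a SMART-Seq kit and tagmented into libraries, without strand marks, per the labels' protocols. Reads were aligned with STAR 2.7.3a to Rnor_6.0 and counted with HTSeq, per the submitters' processing notes, which also name DESeq2. The authors deposited raw counts per gene, 1 column per library. Of the gene names, 25 had become calendar dates, and these rows were tested but not named. Rows of overlapping genes cannot be split by strand.

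Counts were tested with edgeR 4.0.16 (R 4.3.3): TMM scaling, filterByExpr, a quasi-likelihood fit of 4 groups over the 24 posterior eye libraries, and Benjamini-Hochberg adjustment over 16401 genes, called under 0.05. The SE was obtained from the size of the log2 fold change and the F statistic (their quotient, with F under a root), and is approximate. CPM are TMM-scaled, and list levels use a prior count of 2. The tissue difference was fitted over 24 young libraries with the animal as a block, over 16696 genes. Limma 3.58.1 and DESeq2 1.42.0 were alternatives. The test was tested on simulated data. Libraries of a group are separate animals.

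Named genes were those called, the 14 with the smallest p in each direction (at least 2 CPM in the higher group, no provisional symbol), a fixed set, 3 per described list by p, and 6 per direction by size among genes whose groups did not overlap. Other genes appear only as tissue markers or promoter matches. The members and gene lists were chosen with earlier results of these data known, and the alternative without gland libraries was added after seeing the data. Some genes of the fixed set and of the lists are not reported here.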

Additional observations from a re-analysis of the deposited data

Results flagged for a closer look

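In 15 of 244 groups of 6 libraries, 1 library stood far from the others on the log2 CPM scale, by the gap to its nearest neighbour as a share of the group's range, against the 95% critical value of Dixon's test. Chance flags about 1 in 20 such groups. Sham animal 1 was the lowest library for Wee1 (0.657 of the range), Dcn (0.73), Slc4a11 (0.773), Slc6a15 (0.75), Akain1 (0.689) and the WNT list (0.92, at a level of 3.79 against 4.12 to 4.15). Sham animal 6 was the lowest for Ntn3 (0.774) and the highest for the interferon list (0.74, at 4.60 against 4.03 to 4.17).

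OVX animal 10 was the highest OVX library for Awat2 (0.629), Scd (0.739) and the gland list (0.704, at 4.17 against 2.29 to 2.85). It was the lowest for Trem2 (0.77), Oca2 (0.704) and the WNT list (0.677, at 3.92 against 4.13 to 4.23). OVX animal 8 was the lowest for Krt17 (0.658, at 2.29 CPM).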

How the results depend on the processing

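With 1 gene called, Mthfd1l, the count for OVX against sham was 11 with DESeq2 (Mthfd1l, Wee1, Siglec10, Gnaq, Mip, Fos, Jam2, Adamts1, Tsc22d1 and 2 provisional genes) and 6 with the rod level as a covariate. It was 0 when only the 12 young libraries were fitted (782 genes at an unadjusted p under 0.05, edgeR), 0 with the replicate block on the number in the label (976), 0 with the gland level as a covariate (491), and, as alternatives chosen after seeing the data, 0 without the 4 gland libraries (1346) and 0 with gland, rod and lens covariates (1091). Mthfd1l had an adjusted p of 0.0510 under the block. Leaving out 1 library gave 1 to 2 called genes, with 2 without sham animal 4 or without OVX animal 10. What the number in the label stands for is not given. Deviations of same-numbered libraries from their group means correlated at -0.395 to 0.55, and 3 of 6 matched their own number best. Whether same-numbered libraries shared a batch was not tested. Genes whose groups did not overlap went from 39 to 690 of 16401 without the 4 gland libraries. There 3 sham libraries face 5, and groups of fewer libraries separate more easily, so these counts cannot be set against each other. The difference between tissues went from 0 called genes to 1 with no replicate block (animal left out) and 1 with limma-voom and the animal as a random effect, and was 0 to 0 when 1 animal was left out. The difference between ages stayed at 0 in every fit run. The causes were not tested. Of 92 named genes, 11 changed sign under some alternative. The common biological coefficient of variation was 33.4%, and the median SE of a log2 fold change was 0.16, which limits what 6 animals a group can show.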
